A study of Mus musculus with 6 samples.

Results

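The genes described here are 10 markers of airway and lung secretory cells: the secretoglobins Scgb1a1, Scgb3a1 and Scgb3a2, the surfactant proteins Sftpa1, Sftpb, Sftpc and Sftpd, the lung and thyroid transcription factor Nkx2-1, the secreted airway protein Bpifa1 and the water channel Aqp5. They were found by exact gene name among the spots that are not control spots on an Agilent array, which gave 14 probes of 56583, and 9 of the 10 genes were among the 22946 genes bright enough to test. Messenger RNA was measured in 6 teratomas, tumours of mixed tissues grown from mouse embryonic stem cells (mESCs) under the skin of BALB/c Nude mice, with 1 array per tumour and RNA from 1 of 2 pieces of each. Of these, 3 tumours were injected with a miRNA negative control and 3 with a miR-124a-3p mimic (called miR-124a here), a synthetic copy of a microRNA abundant in neurons. Both groups received the RNA in the carrier Atelogen QG at 15 µg per 100 µL once every 3 days to day 28, from about day 10, when tumours had reached at least 100 mm3. The sex and age of the mice, and whether each tumour came from its own mouse, are not given in the sources used here. The p-values set the group difference against the spread between these tumours. They treat the tumours as independent, which could not be checked.

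Airway secretory cells coat the lumen of the airways. Club cells release secretoglobins, small secreted proteins, and the lung alveoli are lined by type II cells, which make surfactant, and by flat type I cells, in which Aqp5 is the apical water channel. Sftpb and Sftpc are small hydrophobic proteins that let the surfactant film spread, while Sftpa1 and Sftpd are collectins, lectins that bind microbes. Nkx2-1 is needed for lung and thyroid development and drives many of the surfactant and secretoglobin genes, but it is also made in the ventral forebrain, and Aqp5, Bpifa1 and Sftpd are made in glands and epithelia outside the lung. A signal of these genes in a teratoma therefore does not by itself identify lung tissue.

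In the miR-124a tumours Aqp5 was 1.92-fold lower than in controls (log2 fold change -0.94 ± 0.16 SE, n = 3 per group, limma, adjusted p = 0.0379), and its groups did not overlap, as for 20.6% of all genes in that direction. The call was lost whichever of the 6 tumours was left out (adjusted p = 0.0613 to 0.140). None of the other 8 tested genes passed, and 3.23% of all genes did. The 3 secretoglobins and Sftpb had low values in miR-124a 1 and miR-124a 2 and values within or above the control range in miR-124a 3, so that tumours of 1 group differed from each other by 4.69-fold to 9.47-fold. Control tumours varied as well, by 4.07-fold for Bpifa1, 3.70-fold for Nkx2-1, 2.55-fold for Sftpd, 2.53-fold for Sftpb and 2.35-fold for Scgb1a1. Nkx2-1 followed neither order.

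Signals below are processed spot intensities scaled so that the 75th percentile of each array equals 100. A spot counts as detected where the scanner software called it well above background, and the dimmest detected probe lay at a scaled signal of 2.09 to 2.54, depending on the array. Levels of different genes are not compared, since each probe has its own brightness. Between 63.4% and 65.9% of probes were detected per array. All 6 arrays lay on 1 slide, the control group in 1 row and the miR-124a group in the second row, so group and slide row cannot be told apart. Markers of several tissues were bright enough to test, among them all 8 listed neuronal, 10 skeletal muscle and 14 simple epithelial genes. In such bulk samples fewer cells of a type and less RNA per cell cannot be told apart.

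Each value rests on a 60-base probe, and 4 are shown because they locate what was measured. Of these, 3 match bases that lie apart in the genome, so they read spliced RNA: the Bpifa1 probe (chr2:153971869-153972981, plus strand, build mm9) spans 1113 bases, the Sftpc probe (chr14:70920899-70921159, minus strand) 261 bases and the dimmer of the 2 Sftpb probes (chr6:72257183-72259754, plus strand) 2572 bases. The fourth is the dimmer of the 2 Aqp5 probes (chr15:99424655-99424714, plus strand), which tells whether the fall of Aqp5 holds at a second site of the transcript. The sequences are those of the scanner files, 5′ to 3′.
Bpifa1: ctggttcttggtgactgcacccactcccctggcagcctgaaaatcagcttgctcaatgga
Sftpc: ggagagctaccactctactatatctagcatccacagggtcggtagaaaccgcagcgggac
Sftpb, dimmer probe: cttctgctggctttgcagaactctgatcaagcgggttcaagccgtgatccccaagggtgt
Aqp5, dimmer probe: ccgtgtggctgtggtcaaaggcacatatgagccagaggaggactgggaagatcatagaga

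**Figure D1:**
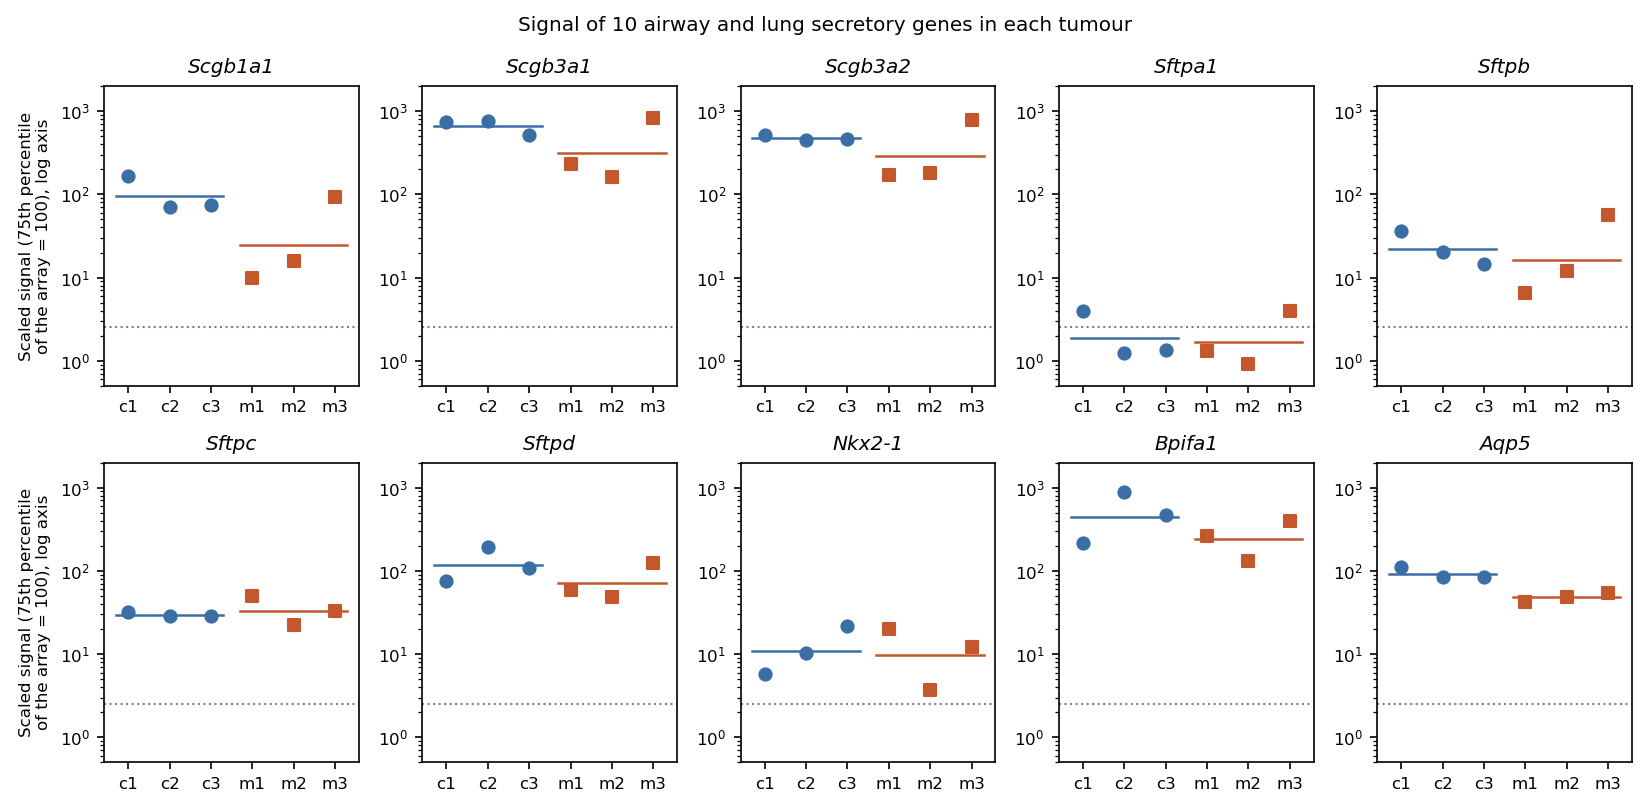
Scaled signal of the brightest probe of each of the 10 genes in each tumour, on a log axis (75th percentile of the array = 100). Blue circles are control tumours (c1 to c3), orange squares are miR-124a tumours (m1 to m3), horizontal lines are group means on the log scale and the dotted line, at 2.54, is the highest of the arrays' dimmest detected signals. The Aqp5 groups are separate, while for the secretoglobins and Sftpb the square of m3 lies far above m1 and m2.

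The other probes lie, in build mm9, on chromosome 19, 9158197 to 9158256 (Scgb1a1), chromosome 11, 49478489 to 49478548 (Scgb3a1), chromosome 18, 43926928 to 43926987 and 43926850 to 43926909 (Scgb3a2), chromosome 14, 41947507 to 41947566 (Sftpa1) and 41985664 to 41985723 (Sftpd), chromosome 12, 57633119 to 57633178 and 57634028 to 57634087 (Nkx2-1), chromosome 6, 72264305 to 72264364 (Sftpb, brighter probe) and chromosome 15, 99425138 to 99425197 (Aqp5, brighter probe). The Sftpa1 and Sftpd probes are 38098 bases apart, within a cluster of collectin genes. The files give no exon or untranslated region for a probe, so none is assigned here.

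The secretoglobins were bright in all control tumours. Scgb3a2, a club cell protein made from early in airway development, had scaled signals of 514, 455 and 468 in control 1 to 3 and of 169, 179 and 790 in miR-124a 1 to 3. The controls thus differed by 1.13-fold, miR-124a 1 and miR-124a 2 had less than every control, and miR-124a 3 had 1.54-fold the highest control. The mean log2 fold change was -0.73 ± 0.59 and did not pass (95% interval -2.15 to 0.69, adjusted p = 0.451). Its second probe ranked the 6 tumours in the same order, with 23.7, 17.5 and 17.8 in controls and 5.33, 6.57 and 27.6 in miR-124a tumours (log2 fold change -0.98 ± 0.60). The arrangement is therefore not peculiar to 1 probe of this gene.

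Scgb3a1, a secretoglobin of airway surface and gland cells, had 748, 769 and 512 in controls and 229, 161 and 835 in miR-124a tumours. Here too miR-124a 3 was the highest of the 6 tumours and the other miR-124a tumours were the lowest. The log2 fold change was -1.09 ± 0.60 (95% interval -2.54 to 0.37, adjusted p = 0.287). Scgb1a1, the main secreted protein of club cells, had 166, 70.6 and 73.8 in controls and 9.77, 16.0 and 92.5 in miR-124a tumours. The value of miR-124a 3 lay between those of control 1 and control 3, and miR-124a 1 was at 0.138 of the lowest control. Its log2 fold change of -1.97 ± 0.85 was the largest in size among the 9 tested genes and did not pass (95% interval -4.03 to 0.09, adjusted p = 0.197). With normexp it was -1.26, so its size depends on the background correction. The intervals of all 3 genes include both no change and a fall of more than 4-fold, so the arrays do not settle the group difference.

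The spread within the miR-124a group was wide next to that of other genes. The SD of log2 signal over the 3 miR-124a tumours was 1.70 for Scgb1a1, 1.25 for Scgb3a1, 1.26 for Scgb3a2 and 1.60 for Sftpb, and at least 99.58% of all tested genes had a smaller one. In controls the same genes had SDs of 0.70, 0.33, 0.09 and 0.68. Leaving out miR-124a 3 gave log2 fold changes of -2.93 for Scgb1a1, -1.79 for Scgb3a1, -1.46 for Scgb3a2 and -1.31 for Sftpb (limma, adjusted p = 0.0509, 0.0442, 0.0257 and 0.199), so Scgb3a1 and Scgb3a2 passed in that fit, in which 1.63% of all genes passed. That tumour is singled out by these values, so the fit is a description and no evidence of a fall. Of all 22946 genes, 1% had miR-124a 1 and 2 below every control and miR-124a 3 above every control, and 3.96% had the first 2 below and the third not below. Of the 9 tested genes here, Scgb3a1, Scgb3a2 and Sftpb had the first arrangement, and these together with Scgb1a1 and Sftpd had the second.

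Among the 20 listed secretoglobin genes 18 were on the array, and 9 of these were not detected in any tumour by any probe. Besides the 3 airway genes, Scgb1b3 and Scgb2b20 were tested, of the androgen-binding protein branch whose members are close in sequence, with log2 fold changes of -0.39 for Scgb1b3 and -0.85 for Scgb2b20 (adjusted p = 0.187 and 0.343). For Scgb2b20 control 2 stood apart at 25.7, against 4.92 to 8.34 in the other 5 tumours. None of the 5 tested secretoglobins passed, and all 5 had lower means with miR-124a, against 50.3% of all genes.

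**Figure D2:**
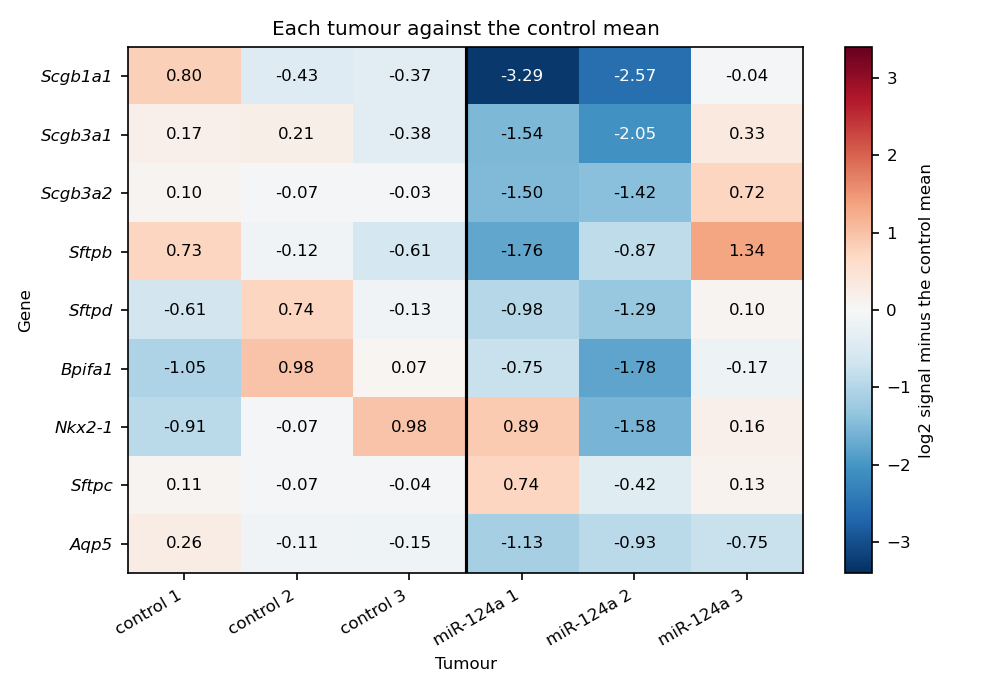
Log2 signal of each tested gene in each tumour minus the mean of the 3 controls, as numbers and colours (red higher, blue lower, scale -3.4 to 3.4). Scgb1a1, Scgb3a1, Scgb3a2 and Sftpb run from -0.87 to -3.29 in miR-124a 1 and 2 and from -0.04 to 1.34 in miR-124a 3, whereas Aqp5 is between -1.13 and -0.75 in all 3.

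Of the surfactant proteins, Sftpb followed the secretoglobins. Its brighter probe had 36.4, 20.1 and 14.4 in controls and 6.48, 12.0 and 55.7 in miR-124a tumours, so miR-124a 3 had 1.53-fold the highest control and 8.60-fold the value of miR-124a 1. The log2 fold change was -0.43 ± 0.80 (95% interval -2.37 to 1.51, adjusted p = 0.757), -0.12 with normexp and 0.24 when miR-124a 1 was left out. The dimmer probe, printed above, was detected only in control 1 (3.38) and miR-124a 3 (5.30), the 2 tumours that were also highest at the brighter probe.

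Sftpa1 was detected in control 1 and miR-124a 3 as well, at 3.98 in each, and in none of the other 4 tumours, where its signal of 0.928 to 1.34 was not well above background. It was the only gene of the 10 that could not be tested. Sftpa1 and the dimmer Sftpb probe were thus near the floor of the array, and their absence from a tumour is a limit of detection.

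Sftpc, in adult lung a protein of type II cells, was detected in every tumour and varied by 1.13-fold over controls, at 32, 28.4 and 29.0. It had 49.8, 22.3 and 32.6 in miR-124a 1 to 3, so miR-124a 1 was the highest and miR-124a 2 the lowest of the 6 tumours. That is the order of neither Sftpb nor the secretoglobins. Its log2 fold change was 0.15 ± 0.28 (95% interval -0.53 to 0.83, adjusted p = 0.754), and -0.14 without miR-124a 1.

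Sftpd had 76.5, 195 and 107 in controls and 59.3, 47.9 and 125 in miR-124a tumours. Control 2 was highest and miR-124a 3 next, and the groups overlapped. The log2 fold change was -0.72 ± 0.47 (95% interval -1.85 to 0.41, adjusted p = 0.352). The other collectins with a tested probe were Mbl2, Colec11 and Colec12, whose log2 fold changes were 0.60, 0.13 and 0.20 (adjusted p = 0.0741, 0.587 and 0.419), and Mbl1 and Colec10 were not detected in any tumour.

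In the list of 12 type II genes, which holds the 4 surfactant proteins, 9 were tested and none passed, with a median log2 fold change of 0.04 (-0.0022 over all genes) and 3 lower means. Abca3, the lipid pump of the surfactant-storing granules, had 1245, 1234 and 939 in controls and 1298, 1550 and 1357 in miR-124a tumours (log2 fold change 0.31 ± 0.15, adjusted p = 0.228). Lpcat1, an enzyme of surfactant lipid synthesis, had 0.23 ± 0.13 (adjusted p = 0.294). Ctsh, a protease that trims surfactant precursors, had 706, 610 and 583 in controls and 566, 518 and 642 in miR-124a tumours (log2 fold change -0.14 ± 0.13, adjusted p = 0.50). For Ctsh, as for Sftpb, miR-124a 1 and miR-124a 2 lay below every control and miR-124a 3 did not, whereas for Abca3 all miR-124a tumours lay above all controls, as for 15% of all genes. Each of these genes is also made outside the lung. In a list of 16 genes of surfactant production and clearance 1 of 15 tested fell, Lmcd1, a LIM-domain protein also made in muscle (-0.97 ± 0.15, adjusted p = 0.0334), while the 10 listed skeletal muscle genes all fell in the same tumours (median -1.67), of which 0 to 9 passed when a tumour was left out and 1 when dim probes were kept. The part of muscle in the Lmcd1 value was not tested. Its call was lost in each fit that left out 1 tumour and when dim probes were kept. The next smallest p of that list belonged to Csf2ra, a receptor chain for the growth factor GM-CSF (0.35 ± 0.10, adjusted p = 0.0957, and 0.0308 with normexp), and Cebpa, a transcription factor (-0.58 ± 0.17, adjusted p = 0.0991).

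Bpifa1, an abundant secreted protein of the upper airway that binds bacteria, had 216, 879 and 467 in controls and 265, 130 and 397 in miR-124a tumours. Controls alone spanned 4.07-fold, which exceeds the 3.06-fold of the miR-124a tumours, and control 1 lay below miR-124a 1 and miR-124a 3. The log2 fold change was -0.90 ± 0.60 (95% interval -2.36 to 0.56, adjusted p = 0.372), moving to -0.41 without control 2 and to -1.42 without control 1. Bpifa1 and Sftpd were the only tested genes of the set with control 2 as the highest tumour. Other genes of airway surface and glands had control 2 highest too. Bpifb1, a larger relative of Bpifa1 in goblet cells and submucosal glands, had 302, 1071 and 657 in controls and 178, 115 and 326 in miR-124a tumours (log2 fold change -1.66 ± 0.55, adjusted p = 0.127). Bpifb5 had -1.31 ± 0.39 (adjusted p = 0.106) and Bpifa2 -2.13 ± 1.43 (adjusted p = 0.370), the latter with a signal of 83.6 in control 2 and at most 8.80 elsewhere. Bpifa2 was detected in only 2 miR-124a tumours and had 0.652, below the floor, in miR-124a 2. With normexp Bpifb5 had -0.51 and Bpifa2 -0.70, so the size of both falls depends on the background correction. Bpifb6, the 1 tested member with a higher mean, had 0.52 ± 0.22 (adjusted p = 0.182). Bpifb6 was detected in 2 controls and all 3 miR-124a tumours, so it was tested through the latter alone. Its signals of 2.19 to 4.46 lay near the floor, and with normexp its log2 fold change was 0.06. Of the 15 BPI fold genes listed, 8 were tested, 7 had lower means and none passed.

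Club and goblet cell genes also had mostly lower means. Of 16 listed, 14 were tested, 13 had lower means with a median log2 fold change of -0.70, and none passed. Those with the smallest p were Hp, Muc5ac, Bpifb1 and Clca1, of which Hp, haptoglobin, had -0.89 ± 0.23 (adjusted p = 0.0860), Muc5ac, a mucin of airway and stomach surface, -1.29 ± 0.42 (adjusted p = 0.122), and Clca1, a secreted goblet cell protease, -0.93 ± 0.39 (adjusted p = 0.189). Muc5ac was dim in miR-124a tumours, at 4.51 to 6.35. With normexp Hp, Muc5ac and Clca1 had -0.80, -0.50 and -0.54. The club cell genes Cyp2f2, Cyp2a5, Aldh1a7 and Cbr2 had -0.24, -0.26, -0.32 and -0.51 (limma, adjusted p = 0.699, 0.708, 0.569 and 0.439). Cyp2f2 had 1132, 2450 and 1652 in controls and 1466, 942 and 2006 in miR-124a tumours. Its value in miR-124a 1 lay above control 1, unlike those of the airway secretoglobins. Pigr had a higher mean (0.17 ± 0.13, adjusted p = 0.443). The median of the list relative to the control mean was -0.57, 0.62 and -0.05 in control 1 to 3 and -0.55, -1.15 and -0.12 in miR-124a 1 to 3, so the 2 groups overlapped. The ductal proteins Dcpp1 and Dcpp3 of the salivary gland list, near-identical genes whose probes may share signal, had control 2 highest and miR-124a 2 lowest (log2 fold changes -2.0 ± 0.66 and -2.0 ± 0.65, adjusted p = 0.126 and 0.119).

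Nkx2-1 had 5.84, 10.4 and 21.6 in controls and 20.3, 3.66 and 12.3 in miR-124a tumours at its brighter probe. Control 3 and miR-124a 1 were highest, control 1 and miR-124a 2 lowest, and the groups overlapped over nearly their whole range. The log2 fold change was -0.18 ± 0.73 (95% interval -1.95 to 1.60, adjusted p = 0.894), and its sign turned with array weights and when control 3 or miR-124a 2 was left out. The second probe was detected in control 3 and miR-124a 1 alone, at 3.15 and 3.65. The tumours with the highest Nkx2-1 signal were thus not those with the highest secretoglobin or Sftpb signal: miR-124a 1 was among the highest for Nkx2-1 and was the lowest of all 6 for Scgb1a1, Scgb3a2 and Sftpb. Sftpc differed from these genes, with miR-124a 1 its highest tumour and miR-124a 2 its lowest, and miR-124a 2 was lowest for Nkx2-1 too. Control 3, the highest for Nkx2-1, was not among the highest for Sftpc. Of the transcription factors Foxa1 and Foxa2, which act with Nkx2-1 in lung endoderm and were picked after their values were seen, Foxa2 had 98.7, 127 and 330 in controls and 330, 128 and 245 in miR-124a tumours. Foxa1 had 245, 423 and 594 in controls and 655, 217 and 539 in miR-124a tumours. For both, control 3 and miR-124a 1 were the highest tumours, as for Nkx2-1, and neither gene passed (adjusted p = 0.624 for Foxa2 and 0.908 for Foxa1). The share of all genes with that arrangement was not counted.

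The other tissues that make Nkx2-1 were read through marker lists. Of 11 thyroid genes 5 were not detected in any tumour, among them Tshr, Pax8 and Slc5a5, which mark thyroid follicular cells, and 3 were tested. These were Duox2, an enzyme that makes hydrogen peroxide in thyroid and in other epithelia, Dio1, a deiodinase, and Hhex, a transcription factor. Duox2 had 2.65, 1.07 and 5.34 in controls, detected in 2 of them, and 10.8, 8.37 and 12.9 in miR-124a tumours (log2 fold change 2.09 ± 0.56, adjusted p = 0.0887). All miR-124a tumours lay above all controls, as for 15% of all genes. Duox2 was bright enough to test through the miR-124a tumours alone. Its control values lay near the floor, and with normexp its log2 fold change was 0.47. Dio1 had -0.76 ± 0.25 (adjusted p = 0.121) and Hhex, at 20.4 to 29.1 over all tumours, -0.15 ± 0.14 (adjusted p = 0.547). Dio1 was detected in all 3 controls but in only 1 miR-124a tumour, and had -0.12 with normexp. The summed signal of the list was 39.7 to 46.2 in controls and 44.9 to 46.0 in miR-124a tumours. Hhex was the largest part of this sum, which also includes the genes not detected, so it is no measure of thyroid tissue. Of 18 ventral forebrain genes 16 were tested and none passed (median 0.19), with a summed signal of 2255 to 2888 in controls and of 2785 to 3581 in miR-124a tumours, the highest of them in miR-124a 1. Sox6, a transcription factor, had -0.26 ± 0.10 (adjusted p = 0.153). Sst, somatostatin, had 0.70 ± 0.27 (adjusted p = 0.166) and Lhx8, a forebrain factor, -1.01 ± 0.60 (adjusted p = 0.317), with -0.32 at its second probe. Sst alone had 902, 1473 and 727 in controls and 1842, 1661 and 1350 in miR-124a tumours. The summed signal of the list therefore leans on 1 bright gene and is no measure of forebrain tissue. The part of forebrain tissue in the Nkx2-1 signal was not tested. Among 23 regulators of lung development 22 were tested and 1 passed: Tbx4, a factor of lung mesenchyme and hindlimb, fell by 1.45 ± 0.15 on the log2 scale (adjusted p = 0.0210). That call was lost when control 2, miR-124a 1 or miR-124a 2 was left out, and also when dim probes were kept. Next by p came Sox9, a factor of the lung bud tips, with 0.40 ± 0.08 (adjusted p = 0.0590, and 0.0170 with normexp), Id2, of the same tips, with 0.33 ± 0.09 (adjusted p = 0.0872, and 0.0338 with normexp), and the growth factor Bmp4, with -0.80 ± 0.22 (adjusted p = 0.0939). The second tested Sox9 probe had -0.04, so the 2 disagreed. No gene of the list passed as higher, against 1 with quantile scaling, 2 with normexp and 2 with a variance trend. The median of the list was 0.14.

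Aqp5 carries water across the apical membrane of type I alveolar cells and of salivary, sweat and airway gland cells. Its brighter probe had 110, 85.5 and 83.2 in controls and 42.1, 48.4 and 54.7 in miR-124a tumours. All miR-124a tumours lay below all controls, and miR-124a 3, high for the secretoglobins, was at 0.497 of the highest control. The log2 fold change was -0.94 ± 0.16 (95% interval -1.31 to -0.56, adjusted p = 0.0379), and the exact two-sided permutation p was 0.1, the smallest that 3 against 3 allow. The dimmer probe printed above had 11.2, 12.2 and 7.28 in controls and 6.07, 4.69 and 5.53 in miR-124a tumours, again without overlap (log2 fold change -0.89 ± 0.22). With normexp this probe had -0.25, so the size of the fall at the second site depends on the background correction. Aqp5 was 1 of the 9 genes of the set tested that passed, while 3.23% of all genes passed, 2.75% as lower and 0.488% as higher, and 27.3% had an unadjusted p under 0.05. All miR-124a tumours were below all controls for 20.6% of all genes. Leaving out 1 tumour at a time, which lost the call each time, gave log2 fold changes from -1.03 to -0.81. Of all genes 0.0567%, 0% and 1.54% passed without control 1, 2 and 3, and 0.00436%, 0% and 1.63% without miR-124a 1, 2 and 3. With normexp background correction Aqp5 passed at -0.72, as 6.72% of genes did. It was lost without the filter on dim probes (adjusted p = 0.0877).

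Aqp5 was the only aquaporin that passed. Of 12 listed, 9 were tested and 5 had lower means. Aqp11, an intracellular channel, had 0.27 ± 0.12 (adjusted p = 0.199). Aqp2 and Aqp6, which lie beside Aqp5 on chromosome 15 and serve mainly in kidney, were dim at 3.02 to 6.08 and did not pass (log2 fold change -0.34 ± 0.18 for Aqp2, adjusted p = 0.273, and -0.33 ± 0.25 for Aqp6, adjusted p = 0.437). Aqp3, of basal epithelial cells, had 148, 197 and 170 in controls and 143, 79.3 and 198 in miR-124a tumours (adjusted p = 0.490), and Aqp4, of astrocytes, had 0.09 ± 0.16 (adjusted p = 0.757; its other probes down to -0.34). Whether Aqp5 differed from these genes in its change was not tested. Of 10 type I cell genes all were tested and 9 had lower means, with Aqp5 the 1 that passed. Akap5, a kinase anchor, had 0.72 ± 0.17 (adjusted p = 0.0697), Clic5, a chloride channel protein, -1.32 ± 0.34 (adjusted p = 0.0828; -0.21 at its second probe) and Cav1, of caveolae, -0.51 ± 0.14 (adjusted p = 0.0962). Ager, a receptor abundant on type I cells, kept within 137 to 150 in all 6 tumours at its brightest probe (adjusted p = 0.547), while its 5 tested probes ran from -0.85 to 0.41 and so disagreed. Of 16 salivary and sweat gland genes 13 were tested and none passed (median -0.52), and Smr3a and Smr2, salivary secretory proteins, were not detected in any tumour. The smallest p belonged to the ion transporter Slc12a2, with -0.52 ± 0.11 (adjusted p = 0.0558, and 0.0372 with normexp). Next was Amy1, salivary amylase, which had 72.6, 82.8 and 78.9 in controls and 114, 161 and 117 in miR-124a tumours (0.73 ± 0.16, adjusted p = 0.0626, and 0.0370 with normexp). All miR-124a tumours lay above all controls for Amy1, as for 15% of all genes, and below all controls for Slc12a2, as for 20.6%.

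**Figure D3:**
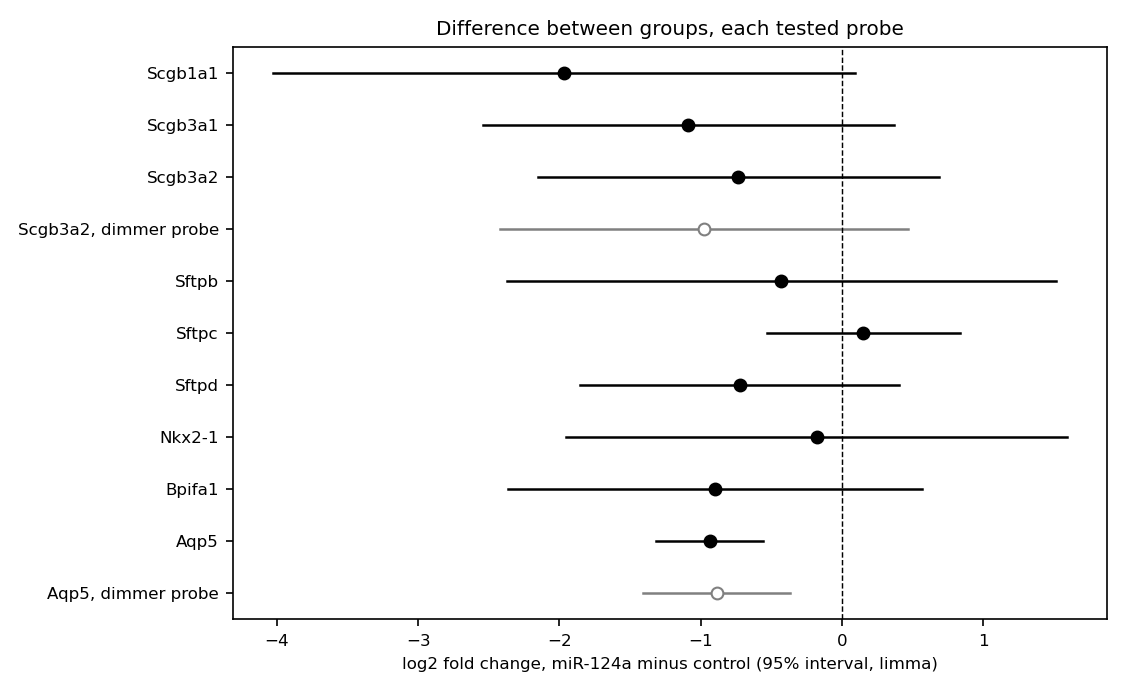
Log2 fold change (miR-124a minus control) of each of the 11 tested probes with its 95% interval from limma. Filled points are the probes that represent a gene and open points are dimmer second probes. The intervals of both Aqp5 probes lie below 0, and all others cross 0.

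As a set, 8 of the 9 tested genes had lower means with miR-124a and 1, Sftpc, a higher one, with a median log2 fold change of -0.73 beside -0.0022 over all 22946 genes. This median is a description and no test. Relative to the control mean the median of the set was -1.13, -1.42 and 0.13 in miR-124a 1 to 3, against -0.13 to 0.11 in controls. Of the 9 genes, miR-124a 2 was the lowest of all tumours for 5 (21.2% of all genes) and miR-124a 1 for the other 4, while miR-124a 3 was the highest of the miR-124a tumours for 7, against 25.4% of all genes.

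Other tissue markers did not all place miR-124a 3 with the controls. The summed signal of the 11 gastric genes on the array was 1155 to 1987 in controls and 530, 472 and 537 in miR-124a 1 to 3. Of the 10 gastric genes tested 5 fell, among them the stomach proteins Gkn2, Tff1 and Pga5 (log2 fold changes -4.78, -2.87 and -2.47; adjusted p = 0.0135, 0.0284 and 0.0327), and 0 to 4 passed when a tumour was left out, 2 without the filter. Atp4b, a proton pump subunit with the second smallest p of the list, was 1 of the 5 (-1.90, adjusted p = 0.0210). It was well above background in the controls alone and was tested through them. Its miR-124a signals of 2.3 to 3.1 lay near the floor, and with normexp its log2 fold change was -0.40, so the size of its fall is uncertain. For 14 simple epithelial genes the summed signal was 2023 to 3174 in controls and 1932 to 2569 in miR-124a tumours, with 13 lower means, a median of -0.25 and none passing. Ciliated cells, which share the airway lining with secretory cells, had 10 of 10 genes tested and a summed signal of 1764 to 3700 in controls and 1977 to 3132 in miR-124a tumours. Of these 1 gene, Ccdc39, a factor of motile cilia, rose (0.67 ± 0.12, adjusted p = 0.0443), a call lost whichever tumour was left out, without the filter and with the mean of its probes, while Dnah9 and Tekt1, of the ciliary axoneme, and Foxj1, their master regulator, had 0.33, 0.13 and 0.12 (adjusted p = 0.454, 0.824 and 0.848). The 3 tested Dnah9 probes ran from 0.33 to 1.39. Basal cells, the stem cells of the airway lining, had a median of -0.39 over 6 genes and no call. Skeletal muscle genes summed to 39058 to 60092 in controls and 15274 to 21324 in miR-124a tumours. The part of these tissues in the values of the 10 genes was not tested.

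**Figure D4:**
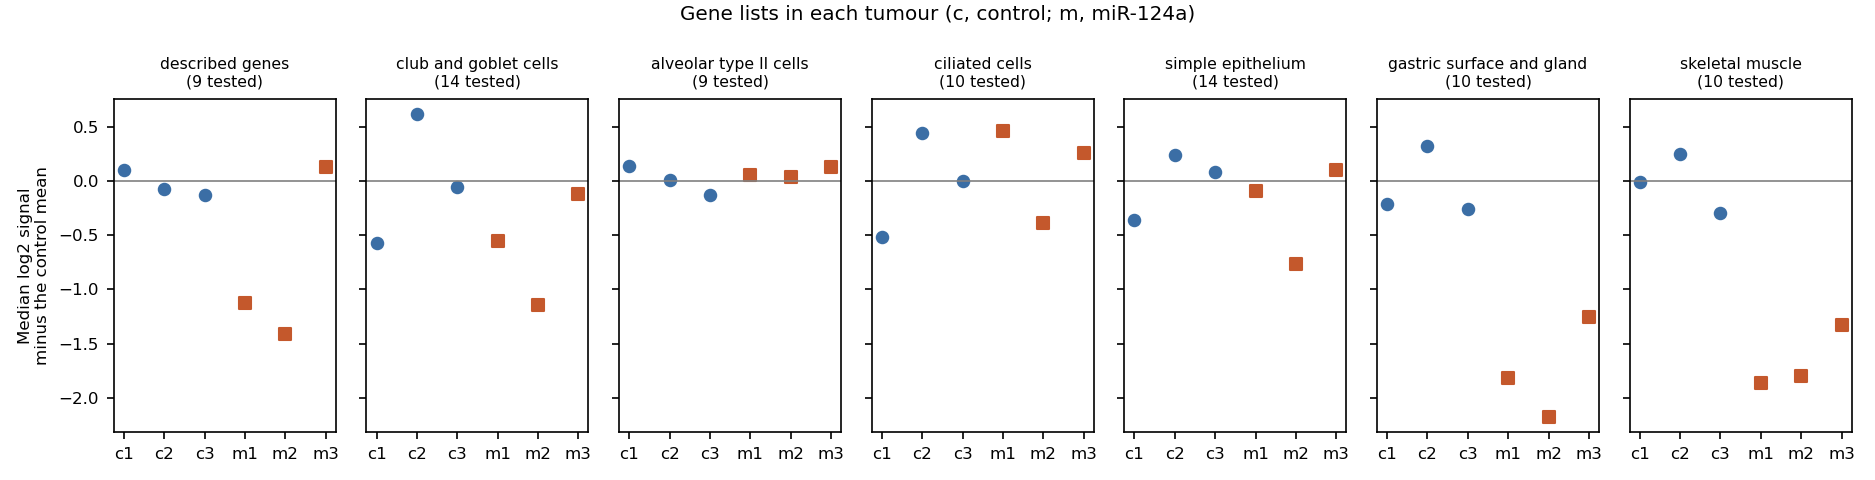
Median over the tested genes of a list of the log2 signal minus the control mean, for each tumour (blue circles control, orange squares miR-124a). In m3 the airway and lung secretory genes (first panel) are at 0.13 and the gastric and skeletal muscle lists at -1.25 and -1.33.

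The genes whose signal ran most like each of the 9 tested genes were ranked over the 6 tumours by Pearson r, as a description. For Scgb3a1 these were Socs3, Tspo and Abca12 (r = 0.997, 0.987 and 0.986), and for Scgb3a2 Tmem51, Cstdc4 and Gm6654 (0.984, 0.982 and 0.979). For Scgb1a1 they were S100a10, Nxpe2 and Blvrb (0.989, 0.985 and 0.981). Bpifa1 ran most like Liph, LOC105244061 and Slc39a4 (0.999, 0.999 and 0.994), Sftpd like Pglyrp1, Aldh3a1 and Sbsn (0.996, 0.993 and 0.991) and Nkx2-1 like Fam210b, Lsr and Zfp865 (0.994, 0.993 and 0.99). Sftpb ran most like Lcp2, followed by a transcript without a symbol and Lmbrd1 (0.989, 0.973 and 0.972), and Sftpc like A930004J17Rik, Cd300c and Foxf1 (0.986, 0.976 and 0.975). Aqp5 ran most like a transcript without a symbol, Xkr5 and Zg16 (0.994, 0.99 and 0.99). Only 6 points enter each r, all arrays of 1 slide, and r was 0.9 or more with 0.231% of the 22946 genes for Sftpc and up to 3.9% for Aqp5.

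The stretch before the start of transcription is shown for Sftpb and Scgb3a1, both highest in miR-124a 3 and lowest in the other miR-124a tumours, and for Bpifa1, highest in control 2. The promoter table used here, from RefSeq (build GRCm38.p6), was matched for 6 of the 10 genes; the windows of Scgb1a1, Scgb3a2, Sftpc and Sftpd were not analysed here. Capitals mark 3 motifs searched on both strands of the 250 bases: CTCAAG, the core that Nkx2-1 binds, TGTTTNC, a form of the forkhead site, and TATAAA. These occur in 13.3%, 17.8% and 12.4% of all 32851 windows of this length, and no motif overlapped another here.
Sftpb (chr6:72304360-72304609, plus strand): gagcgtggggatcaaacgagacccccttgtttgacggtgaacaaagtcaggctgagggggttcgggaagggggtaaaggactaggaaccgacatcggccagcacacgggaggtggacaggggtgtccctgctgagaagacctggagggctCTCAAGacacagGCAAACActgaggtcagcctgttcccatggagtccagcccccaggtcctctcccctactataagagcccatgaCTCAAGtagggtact
Scgb3a1 (chr11:49663345-49663594, plus strand): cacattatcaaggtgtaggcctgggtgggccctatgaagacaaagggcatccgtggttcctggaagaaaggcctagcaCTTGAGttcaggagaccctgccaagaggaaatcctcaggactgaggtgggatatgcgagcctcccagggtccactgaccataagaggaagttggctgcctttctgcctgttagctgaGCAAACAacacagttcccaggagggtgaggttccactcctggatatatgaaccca
Bpifa1 (chr2:154142630-154142879, plus strand): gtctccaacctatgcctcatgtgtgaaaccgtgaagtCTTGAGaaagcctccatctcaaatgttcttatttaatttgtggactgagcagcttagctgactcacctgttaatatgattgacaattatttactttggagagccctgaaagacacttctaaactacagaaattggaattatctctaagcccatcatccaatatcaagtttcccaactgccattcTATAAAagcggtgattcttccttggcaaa
In Sftpb CTCAAG matched at 95 and at 10 bases before the start and the forkhead form, on the other strand, at 82. In Scgb3a1 both matched on the other strand, at 167 and 49 bases. Bpifa1 held CTCAAG on the other strand at 208 bases and TATAAA at 24, and Sftpa1 held CTCAAG at 161 and TATAAA at 25. Aqp5, with 78.4% G and C in its window, and Nkx2-1 itself held none of the 3. A match describes the letters only and says nothing of binding in these tumours.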

How the data were processed

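Cy3-labelled RNA of 6 tumours was read on Agilent arrays of 1 colour, per the labels. The deposited spot intensity had been background-subtracted and detrended, with low signals replaced by surrogates, by Agilent Feature Extraction 11.5.1.1, per the file headers and the submitters' processing notes, and was not scaled between arrays. A deposited log2 value table by the authors served as an alternative; it differed from the log2 intensity by a constant per array (SD at most 0.00319). The other columns used are flags.

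Spots flagged as outliers were left out (22 probes lost) and spots of 1 probe averaged. Values are log2 intensity minus the 75th percentile of the array's spots that are not control spots (279 to 315). A probe was tested if well above background on all 3 arrays of a group (35719 probes), and a gene is its brightest tested probe. Names came from the accession through RefSeq (GRCm38.p6; 32979 probes), the symbol (10223) or an older symbol (520), or stayed as in the file (12861). The test was limma's moderated linear model (version 3.58.1, R 4.3.3), adjusted by Benjamini-Hochberg across the 22946 genes, and 0.05 was the threshold; the script was tested on simulated data. The precision is limited by the number of arrays.

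The 10 genes and the lists were chosen with earlier results of these data known. All 10 genes are described. Where other genes of a list are named, they are up to 4 with the smallest p, with family members and defining markers beside them; lists given by counts name fewer or none. Foxa1, Foxa2, Aqp3, Aqp4, Ager, Cyp2f2, Cyp2a5, Aldh1a7, Cbr2 and Pigr, outside that rule, were chosen after their values were seen. The alternatives were quantile scaling, normexp with an offset of 50 and quantile scaling (normexp below), the authors' table, 2 other filters, averaging all probes of a gene, a replicate block, a variance trend with robust estimation, array weights and leaving out each tumour. The sequence of miR-124a itself is not given here.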

Additional observations from a re-analysis of the deposited data

How the results depend on the processing

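Of 135 values of the 9 tested genes under 15 alternatives, 120 kept their direction and their side of the threshold. Aqp5 kept its direction in all 15, from -1.03 to -0.72 on the log2 scale, and lost its call in 8 of them: without the filter on dim probes, with the replicate block (adjusted p = 0.151) and whichever of the 6 tumours was left out. The number of genes of the set that passed, 1, was 0 without the filter on dim probes, 0 with the replicate block and 0 to 2 when a tumour was left out. The sign turned for Nkx2-1 with array weights (0.20), without control 3 (0.31) and without miR-124a 2 (0.52), for Sftpb without miR-124a 1 (0.24) and for Sftpc without miR-124a 1 (-0.14). Leaving out 1 tumour gave -0.71 to 0.52 for Nkx2-1, -1.31 to 0.24 for Sftpb and -0.14 to 0.44 for Sftpc. The count over all genes, 742 (84.9% lower), was 1543 with normexp (62.5% lower), 96 of 37001 without the filter on dim probes, 1725 with a variance trend and robust estimation, 0 with the replicate block (4955 at an unadjusted p under 0.05, limma) and 0 to 375 when a tumour was left out (4103 to 6117 unadjusted). Of the 179 other listed genes tested 18 passed, 28 with normexp, 28 with the variance trend, 3 of 224 without the filter, 0 with the replicate block and 0 to 14 when a tumour was left out. Why these counts moved was not tested. The fits that left out a tumour had fewer tumours, and the fit without the filter had more genes. Sftpa1 and the dimmer probes of Sftpb and Nkx2-1 were near background, which limits what their values show. Tumours with the same replicate number did not deviate together (correlations of -0.155, -0.0390 and -0.0646 over genes), so the replicate number was not taken to pair them, and the replicate block is given as an alternative only.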
